A study of Macaca fascicularis with 2 samples.

Results

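The proteasome subunit genes were taken as every feature whose symbol begins with PSMA, PSMB, PSMC, PSMD, PSME, PSMF or PSMG and continues with a number only, which gave 46 genes of 28845 features. They comprised 8 alpha ring genes, 11 beta ring genes, 5 ATPase genes, 13 genes of the PSMD series, 4 activators, 1 inhibitor and 4 assembly chaperones. All 46 genes had UMIs in at least 1 library, and 44 reached 20 CPM in some class of cells, where CPM is the gene's UMI count scaled to all UMIs of the class. The exceptions were PSMD5 and PSMB11, with highest stage levels of 17.0 and 1.14 CPM in the germ line. The ATPase gene PSMC6 was listed only under a LOC name that the RefSeq table ties to it, and PSMD6 was not matched by symbol or gene number, so neither is among the 46. Further rows named PSMA8_1, PSMA2_1 and PSME1_1 stood beside genes of the set and are given where they matter.

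Proteasomes cut proteins that carry ubiquitin chains. The cutting sites lie inside a barrel of alpha and beta rings, which is closed by a cap whose ATPases unfold the substrate and whose PSMD subunits recognise and strip the ubiquitin. Some subunits can be exchanged: interferon-induced PSMB8, PSMB9 and PSMB10 replace the catalytic PSMB5, PSMB6 and PSMB7 in immune cells, and in meiotic germ cells the testis-restricted PSMA8 takes the place of PSMA7. Activators such as PSME4, known from the removal of histones in spermatids, can replace the cap.

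Single-cell RNA sequencing was applied to testis of cynomolgus monkeys (Macaca fascicularis) with artificial cryptorchidism on 1 side. UAT was the testis in the abdomen and CST the testis of the other side, in the scrotum, with 1 library each. Ages, the number of animals, how the position was brought about and for how long are not given in the sources used here. The question named by the study is how the abdominal position acts on spermatogenesis.

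There were 12564 barcodes with 111047299 UMIs in UAT and 15952 barcodes with 197225937 UMIs in CST, and 50 barcode sequences occurred in both. After filtering, 11131 UAT and 13201 CST cells were clustered without the proteasome genes, and 31 of 35 clusters received a name from marker genes. Germ cells past the spermatogonia came almost wholly from CST: 2054 late spermatocyte-like, 2588 round spermatid-like and 2587 elongating spermatid-like cells, against 3, 0 and 0 in UAT. Sertoli-like and Leydig-like cells came almost wholly from UAT, with 791 and 250 cells against 1 and 2 in CST. Germ stages were therefore described in CST, and the positions were compared in the 7 classes with at least 50 cells in each library. With 1 library per position and per class no test was possible: intervals are exact 95% intervals that cover counting error only, and every difference is between these libraries. Among the classes, pericyte-like stands for cells with markers of pericytes or of vascular smooth muscle, and T/NK-like for those of T or NK cells. A lower CPM in a class cannot be told apart from more RNA of other genes per cell.

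Free RNA was found in the somatic classes. Together, 5 genes of late spermatids (HMGB4, PRM1, PRM2, TNP1 and TNP2) stood at 3530 to 13966 CPM in the compared CST classes and at 0.74 to 4.99 CPM in the same UAT classes. The estimated share of free RNA was 3.08% to 8.83% in these CST classes and 2.22% to 5.24% in the UAT classes. The estimate rested on the 5 genes above in CST and on INSL3 alone, a gene of Leydig cells, in UAT. Values after subtraction of free RNA are given for PSMG1, PSMF1, PSMB1, PSMC4, ADRM1 and POMP.

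Over the germ stages of CST the proteasome genes as a set were highest in differentiating spermatogonia and late spermatocytes and lowest in elongating spermatids. Their summed level was 7385 CPM in undifferentiated spermatogonia-like, 8950 in differentiating spermatogonia-like, 7142 in early spermatocyte-like, 8793 in late spermatocyte-like, 6605 in round spermatid-like and 2797 in elongating spermatid-like cells. The highest stage was the late spermatocyte for 15 genes, the differentiating spermatogonium for 12 and the undifferentiated spermatogonium for 8. It was the early spermatocyte for 4, the round spermatid for 4 and the elongating spermatid for 3. The shares of all features by highest stage are not given here, so these counts describe the set and do not set it apart. Of 44 genes with at least 30 UMIs in their highest stage, 34 were lowest in elongating spermatids (48% of all features with that many UMIs) and 33 spanned at least 10-fold from highest to lowest stage (71.7%).

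**Figure D1:**
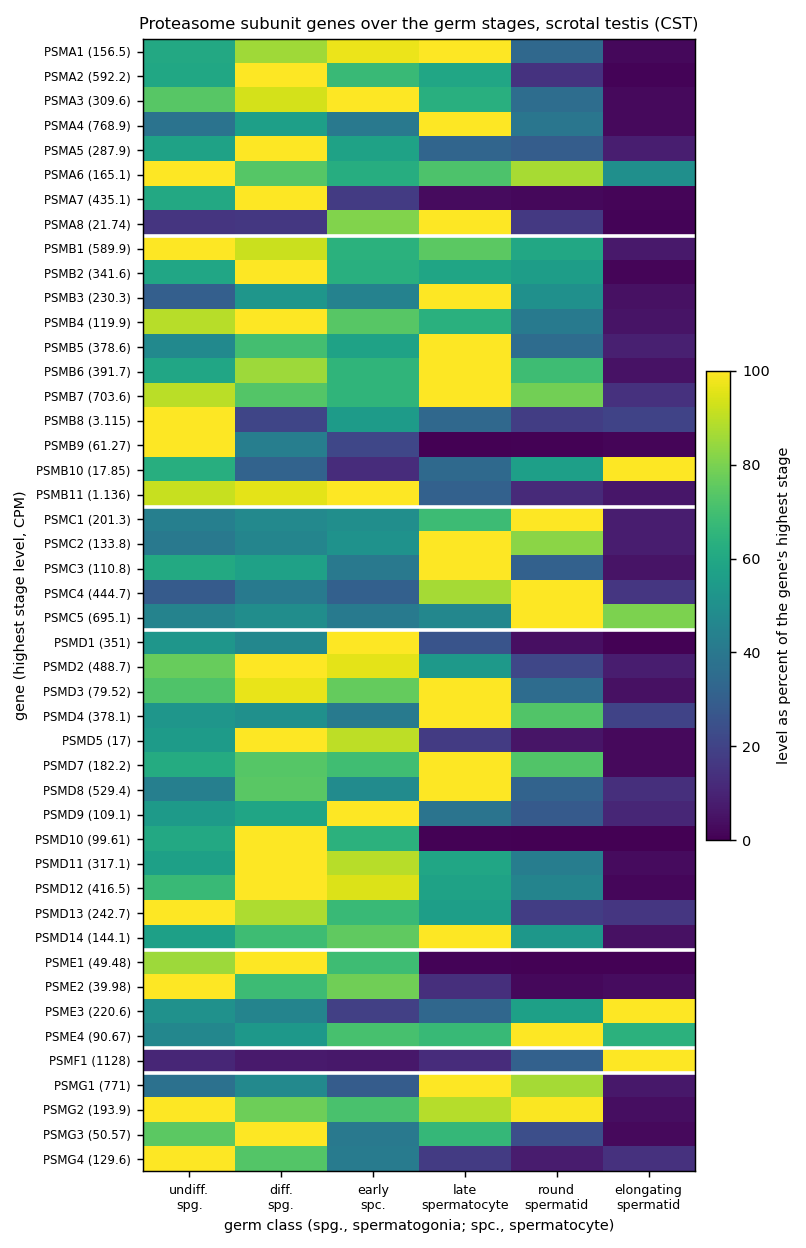
Level of each of the 46 genes in the 6 germ stages of CST, as a percent of the gene's own highest stage (colour), with the highest level in CPM beside the name; white lines part the subunit groups. Most rows darken in the elongating spermatid column, where PSMF1, PSME3 and PSMB10 are brightest, and PSMD10, PSME1 and PSMB9 are dark from the late spermatocyte on.

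From stage to stage, genes were counted as higher or lower when they differed by at least 1.5-fold. In differentiating against undifferentiated spermatogonia 8 of the 41 genes measured were higher (21.9% of all features) and 1 lower (22%). Into early spermatocytes 2 of 41 were higher (24.2% of all features) and 9 lower (24%). Into late spermatocytes 13 of 41 were higher (25.8% of all features) and 11 lower (48.8%), where the genes' median on the log2 scale was 0.20 and that of all features -0.55. Into round spermatids 3 of 37 were higher (33%) and 16 lower (38%). Into elongating spermatids 2 of 33 were higher (14.9%) and 28 lower (67%), with medians of -2.35 and -1.22. At that last step the 5 late spermatid genes above stood at 22358 CPM before and 355013 CPM after. Between the ends of the course, elongating spermatids against undifferentiated spermatogonia, 3 of 41 genes were higher (21.1%) and 37 lower (71.1%).

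From differentiating spermatogonia to late spermatocytes, RNA of the alpha ring gene PSMA7 fell while that of PSMA8 rose. The make-up of the ring itself was not measured. PSMA7, the constitutive subunit at the position that PSMA8 takes in germ cells, stood at 263 CPM in undifferentiated spermatogonia (interval 247 to 280) and 435 in differentiating spermatogonia (416 to 455). It was lower in early spermatocytes, at 76.1 CPM (63.8 to 90.1), and stood at 12, 8.69 and 6.23 CPM in late spermatocytes, round spermatids and elongating spermatids. PSMA8 was highest where PSMA7 was already low, in late spermatocytes, and both were lowest in elongating spermatids. PSMA8 stood at 3.38, 3.49, 17.6, 21.7, 3.64 and 0.186 CPM over the 6 stages. The row PSMA8_1 had a like course at a higher count, with 25.4, 14.6, 84.6, 211, 41.6 and 2.07 CPM.

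The 2 PSMA8 rows held 1444 and 14101 UMIs in CST and 24 and 215 in UAT. Reads of near-identical copies may be split between them, so the level of each row is uncertain and both readings are given. Of the UMIs of PSMA7 plus PSMA8, PSMA8 made up 1.27% in undifferentiated spermatogonia, 0.795% in differentiating spermatogonia, 18.8% in early spermatocytes (13.1 to 25.6), 64.4% in late spermatocytes (61.8 to 66.8) and 29.5% in round spermatids (26.0 to 33.3). With both PSMA8 rows summed the share was 57.3% in early spermatocytes, 95.1% in late spermatocytes and 83.9% in round spermatids. Such shares compare stages, not the capture of different genes. The late spermatocyte share ranged from 53.5% to 80.1% over the other ways of processing that kept the single row.

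Within the late spermatocytes the 4 clusters had PSMA8_1 at 188 to 244 CPM but differed in PSMA7. Clusters 13 and 25, with H1-6, SPATA8 and ACYP1 among their 5 leading genes, had PSMA7 at 22.8 and 20.7 CPM. Clusters 12 and 28, both led by AURKA, a kinase of cell division, had it at 5.19 and 1.70 CPM. Among round spermatids, PSMA8_1 stood at 81.0 and 70.7 CPM in clusters 19 and 6, 33.5 in cluster 21 and 8.13 in cluster 17.

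**Figure D2:**
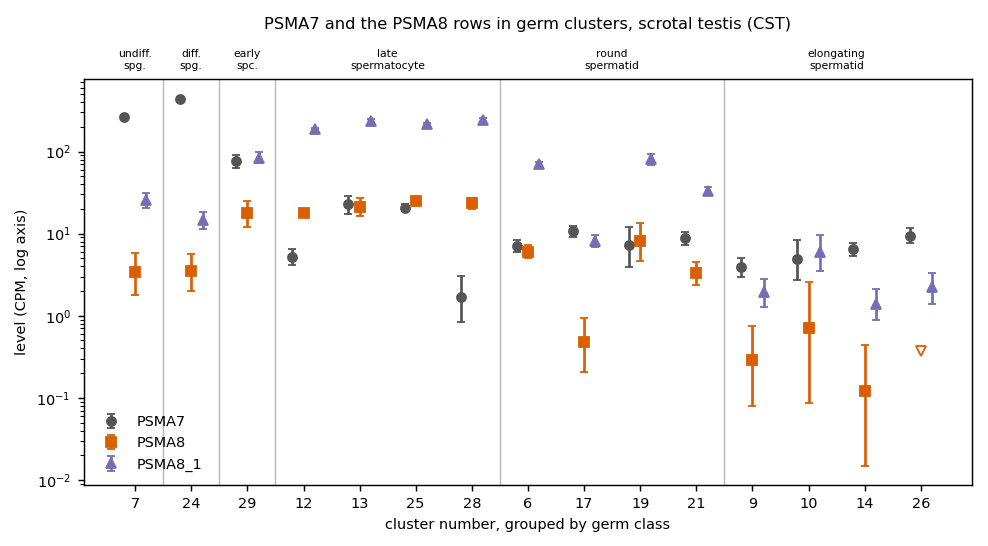
Level in CPM (log axis) of PSMA7, PSMA8 and the row PSMA8_1 in each CST germ cluster, grouped by class; bars are 95% counting intervals, an open triangle is the upper limit of a level of 0, and the order of clusters inside a class has no meaning. PSMA7 lies above both PSMA8 rows in the spermatogonia and below PSMA8_1 in all 4 late spermatocyte clusters.

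In cells thinned to 1000 UMIs each, a PSMA8_1 UMI was found in 17.8% of late spermatocytes (75.4% before thinning) and in 0.68% of CST stromal-like cells (4.04% before thinning), a class that should lack the gene. The thinning left out 145 and 57 shallower cells. Their median depths were 17688 and 4301 UMIs. In the somatic classes of CST PSMA8_1 stood at 7.86 to 16.6 CPM. In those of UAT, a library with only 3 late spermatocyte-like cells, it stood at 0 to 2.47 CPM. Undifferentiated spermatogonia of UAT nevertheless had PSMA8_1 at 34.4 CPM, with 0.0429 CPM estimated from free RNA, and those of CST at 25.4 CPM with 2.47 CPM estimated. Their ratio of 1.35 had an interval of 1.04 to 1.77. PSMA8 itself stood at 3.44 and 3.38 CPM there, on 14 and 13 UMIs.

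The features most like PSMA8 over the 12 CST classes were, by Pearson's r of log2(CPM + 10), MYBL1 (0.96), SYNGR4 (0.96), FBXO15 (0.95), LDHAL6B (0.94), CCDC144NL (0.94), SPATA22 (0.94) and KDM5B (0.94), with 3 LOC features among the first 10. MYBL1 is a regulator of meiotic genes, and SPATA22 acts in meiotic recombination. PSMA8_1 had an r of 0.93 with PSMA8, and its own closest feature was PIWIL1, the piRNA-binding protein of pachytene cells, at 0.99. All these values share 1 library and have MYBL1, SPATA22 and PIWIL1 among the markers that named the classes.

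PSMA2 and PSMA5 were, like PSMA7, highest in differentiating spermatogonia, but kept more of that level in late spermatocytes. PSMA5 stood at 288 CPM in differentiating spermatogonia, 93.5 in late spermatocytes and 23.8 in elongating spermatids. PSMA2 stood at 354, 592, 401, 350, 87.1 and 5.72 CPM from undifferentiated spermatogonia to elongating spermatids, and PSMA1 at 94.5, 134, 152, 157, 52.7 and 3.39. PSMA4 was highest in late spermatocytes at 769 CPM and PSMA3 in early spermatocytes at 310. PSMA6 varied least of the 46 genes, from 165 CPM in undifferentiated spermatogonia to 82.1 in elongating spermatids, a 2.01-fold span. The PSMA2_1 row stayed at or below 9.59 CPM in the germ stages.

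Of the catalytic beta subunits, the constitutive genes were highest in late spermatocytes. PSMB5, the chymotrypsin-like site, stood at 180, 265, 218, 379, 134 and 32.5 CPM over the 6 stages. PSMB6, the caspase-like site, stood at 232, 334, 256, 392, 271 and 19.1 CPM. PSMB7, the trypsin-like site, stood at 631, 516, 461, 704, 553 and 101 CPM. The structural PSMB3 was also highest in late spermatocytes, at 230 CPM, with 10.4 CPM in elongating spermatids. PSMB2 and PSMB4 were highest in differentiating spermatogonia, at 342 and 120 CPM, and PSMB1 in undifferentiated spermatogonia, at 590 CPM. PSMB11, the thymus subunit, had at most 1.14 CPM in any germ stage.

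The 5 ATPase genes were highest in late spermatocytes (PSMC2 and PSMC3, at 134 and 111 CPM) or in round spermatids (PSMC1, PSMC4 and PSMC5, at 201, 445 and 695 CPM). PSMC4 stood at 127, 182, 136, 384, 445 and 70.1 CPM over the stages. PSMC5 kept 557 CPM in elongating spermatids (550 to 565), above its 286 to 340 CPM in the 4 earlier stages. When the 50 most abundant and the mitochondrial features were left out of the total, the order of its top stages turned, and PSMC5 stood at 803 CPM in round and 1061 in elongating spermatids. PSMC6 under its LOC name stood at 45.4, 37.3, 44.3, 8.56, 10.8 and 1.84 CPM.

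The PSMD genes divided by stage. PSMD10, an assembly chaperone of the cap that lies on the X chromosome in human, stood at 60.0, 99.6 and 64.2 CPM in spermatogonia and early spermatocytes. It stood at 0.631 CPM in late spermatocytes (interval 0.416 to 0.918, 27 UMIs) and at 0.136 and 0.139 CPM in round and elongating spermatids. This 730-fold span was the widest of the set, on a lowest count of 7 UMIs. PSMD1, a scaffold of the cap, was highest in early spermatocytes at 351 CPM (324 to 380) and stood at 184, 162, 91.8, 14.2 and 1.84 CPM in the other stages in order. PSMD5 and PSMD9, also assembly chaperones of the cap, were highest in differentiating spermatogonia at 17.0 CPM and in early spermatocytes at 109 CPM.

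PSMD2, PSMD11 and PSMD12 were highest in differentiating spermatogonia, with 489, 317 and 417 CPM, and stood at 38.3, 9.55 and 7.67 CPM in elongating spermatids. PSMD3, PSMD4, PSMD7, PSMD8 and PSMD14 were highest in late spermatocytes, with 79.5, 378, 182, 529 and 144 CPM. Among these, PSMD4, a ubiquitin receptor, kept 76.0 CPM in elongating spermatids, and PSMD14, which strips ubiquitin from the substrate, 6.37 CPM. PSMD13 was highest in undifferentiated spermatogonia, at 243 CPM.

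The activators took different courses over the stages. PSME1 and PSME2, which together form the interferon-induced activator and are neighbours with EMC9 between them in the RefSeq table, were genes of spermatogonia and early spermatocytes. PSME1 stood at 42.3, 49.5, 34.1, 0.491, 0.253 and 0.325 CPM over the stages, and PSME2 at 40.0, 27.5, 31.2, 5.38, 0.935 and 1.28 CPM. PSME3, the nuclear activator, stood at 112, 99.6, 41.5, 73.4, 125 and 221 CPM. PSME4, which binds acetylated histones, stood at 42.1, 48.4, 64.2, 61.1, 90.7 and 58.3 CPM, a 2.16-fold span.

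PSMF1, which encodes the inhibitor PI31, stood apart from nearly all others. Its level was 121, 82.8, 72.1 and 141 CPM from undifferentiated spermatogonia to late spermatocytes, 352 CPM in round spermatids (347 to 357) and 1128 CPM in elongating spermatids. Each of the 4 elongating clusters held it at 939 to 1246 CPM. Among round spermatids, cluster 17 had 519 CPM and the other clusters 179 to 300 CPM. Left without the 50 most abundant and the mitochondrial features, the elongating level was 2147 CPM.

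Of the assembly chaperones, PSMG1 was highest in late spermatocytes at 771 CPM and stood at 666 CPM in round and 50.6 CPM in elongating spermatids, against 288, 362 and 224 CPM in the 3 earlier stages. Its partner PSMG2 varied less before elongation, from 139 to 194 CPM, and stood at 7.23 CPM in elongating spermatids. PSMG3 was highest in differentiating spermatogonia at 50.6 CPM. PSMG4 was highest in undifferentiated spermatogonia at 130 CPM and lowest in round spermatids at 9.72 CPM.

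Genes of the ubiquitin pathway outside the set, taken from a fixed list of 33 of which 30 had a feature, also took separate courses. UBB, a polyubiquitin gene, stood at 1954, 1466, 1692, 6578, 5170 and 1640 CPM over the stages. UBA1, the main ubiquitin-activating enzyme, stood at 55.3 CPM in undifferentiated spermatogonia and 0.3 CPM in late spermatocytes. USP14, a ubiquitin protease of the cap, stood at 253 CPM in differentiating spermatogonia and 0.7 CPM in elongating spermatids. ADRM1, a ubiquitin receptor of the cap, stood at 518 CPM in undifferentiated spermatogonia, 136 in early spermatocytes and 526 in elongating spermatids. POMP, the chaperone of ring assembly, stayed between 270 and 479 CPM until the round spermatid and was at 70.0 CPM in elongating spermatids. The germline partner list had 8 symbols, 6 with a feature, and its SIX6OS1 and C14orf39 are names of the same gene. Of this list, SYCP1 and SYCP3, structural proteins of the synaptonemal complex, were highest in early spermatocytes at 1844 and 1364 CPM. PTTG1 was highest in late spermatocytes at 1223 CPM.

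The share of the immune subunit PSMB8 separated blood-derived and endothelial cells from the rest. Of the UMIs of PSMB5 plus PSMB8, PSMB8 made up 89.6% in T/NK-like cells of UAT and 87.2% in CST, 71.7% and 73.8% in endothelial-like cells, and 49.6% and 54.7% in macrophage-like cells. It made up 34.4% and 34.9% in pericyte-like cells. In UAT alone the share was 73.4% in S100A8/S100A9 myeloid-like, 69.8% in mast-like, 58.3% in lymphatic endothelial-like and 50.4% in B or plasma-like cells. It was 19.5% in Sertoli-like and 8.0% in Leydig-like cells, and in the germ stages of CST it stayed at or below 1.9%. The libraries differed in stromal-like cells, with 26.4% in UAT (24.5 to 28.2) and 16.0% in CST (14 to 18.2). They also differed in myoid-like cells, with 18.7% (16.5 to 21.0) and 6.6% (4.1 to 10.0). In both of these classes UAT and CST cells lay almost wholly in different clusters. Library and kind of cell cannot be told apart there. PSMB9, taken against PSMB6, likewise made up 17.6% and 8.5% in stromal-like and 10.4% and 4.7% in myoid-like cells, and went the other way in macrophage-like cells, with 39.2% and 55.0%.

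PSMB9 gave much the same order, with an exception in the germ line. Its share of PSMB6 plus PSMB9 was 78.3% in T/NK-like cells of UAT and 75.8% in CST, and 73.2% and 74.2% in endothelial-like cells. In lymphatic endothelial-like cells of UAT it was 34.7%. In undifferentiated spermatogonia it was 19.7% in UAT (17.1 to 22.4) and 20.9% in CST (18.5 to 23.4), while PSMB8 stood there at 4.7% and 1.7%. PSMB9 lies close to PSMB8 in the RefSeq table, with TAP1 and a LOC gene between them. Its level in CST was 61.3 CPM in undifferentiated spermatogonia (53.7 to 69.6), 26.2 in differentiating spermatogonia and 13.1 in early spermatocytes, then 0.234, 0.253 and 0.744 CPM in the later stages. The estimate from free RNA was 0.413 CPM of the first value, and 1.91 of the 44.4 CPM in UAT. After thinning, 5.71% of undifferentiated spermatogonia in CST (27.1% unthinned) had a PSMB9 UMI, against 0.96% of myoid-like and 1.23% of stromal-like cells (3.61% and 5.58% unthinned), at median depths of 2684, 5963 and 4301 UMIs. In UAT the share in spermatogonia was 3.14% (interval 1.36 to 6.09, 30.9% unthinned, median depth 6960 UMIs), near the 2.78% of Sertoli-like and 2.40% of stromal-like cells and below the 6.15% of pericyte-like cells. The thinning left out 111 of 531 spermatogonia, 1 of 416 myoid-like and 57 of 1684 stromal-like cells in CST. In UAT it left out 27 of 282 spermatogonia, 107 of 791 Sertoli-like, 16 of 2346 stromal-like and 17 of 635 pericyte-like cells. All these classes may express the gene.

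Other genes of class I antigen processing (11 genes, all with a feature) gave low values in the same cells. In undifferentiated spermatogonia of CST, TAP1 stood at 5.5 CPM and B2M, the light chain of class I molecules, at 5.2 CPM, against 130 and 412 CPM in CST endothelial-like cells. The interferon-induced regulator IRF1 stood at 50.1 CPM, and at 0.2 CPM in late spermatocytes. The chaperones CALR and PDIA3, which also serve glycoprotein folding in general, stood at 364 and 260 CPM.

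PSMB10 followed the immune cells less closely. Its share of PSMB7 plus PSMB10 was 32.4% in S100A8/S100A9 myeloid-like and 32.1% in T/NK-like cells of UAT, and 17.7% in T/NK-like cells of CST (11.2 to 26.0). In endothelial-like cells it was 16.2% in UAT and 15.8% in CST. Lymphatic endothelial-like cells of UAT had 5.2% (2.6 to 9.1), below the 8.1% of Sertoli-like and 7.2% of stromal-like cells of UAT. Elongating spermatids had 15.0% (14.1 to 16.1), against 1.8% in round spermatids. PSMB7 stood at 101 CPM in elongating spermatids and PSMB10 at 17.8 CPM, its highest germ level. PSME1 and PSME2 also ranked high outside the germ line: PSME1 stood at 511 and 487 CPM in T/NK-like cells of UAT and CST, 389 in S100A8/S100A9 myeloid-like cells of UAT and 61.9 in Sertoli-like cells.

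**Figure D3:**
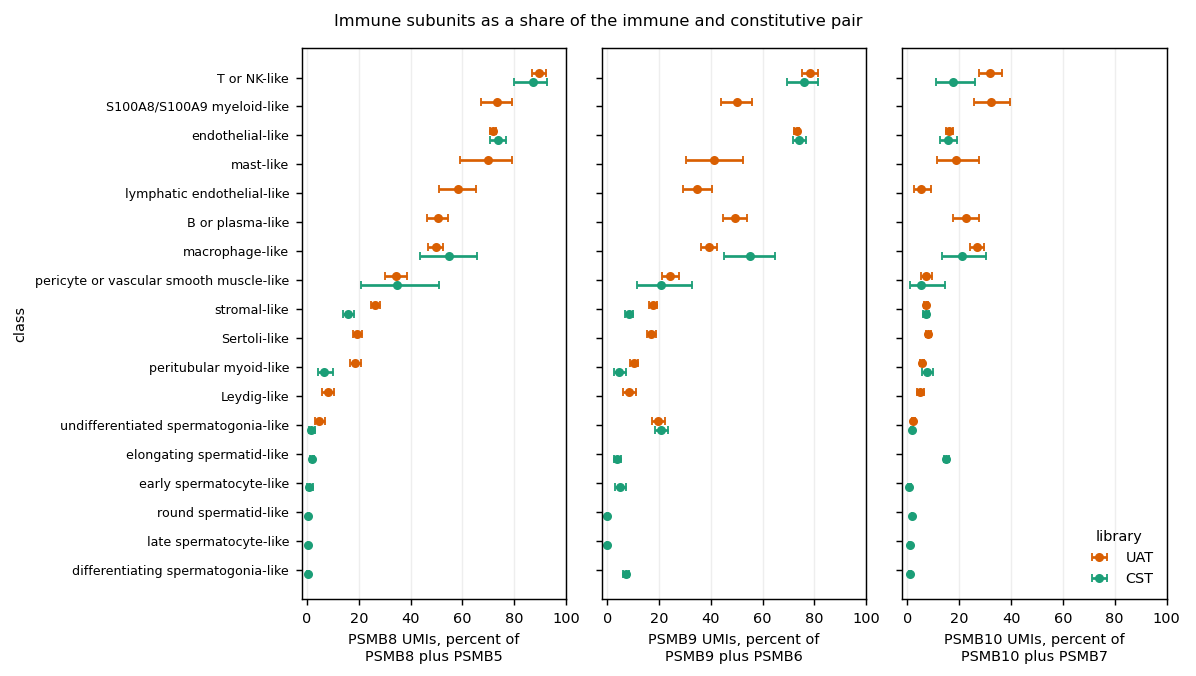
UMIs of PSMB8, PSMB9 and PSMB10 as a percent of each gene plus its constitutive partner, by class, in UAT (orange) and CST (green); points are shares and bars exact 95% binomial intervals. T/NK-like and endothelial-like cells lie near 70% to 90% for PSMB8, germ stages near 0, and undifferentiated spermatogonia near 20% for PSMB9.

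In the comparison of positions the proteasome genes were on the whole slightly lower in UAT than in CST, in every class compared. The summed level was 6507 CPM in UAT and 7385 CPM in CST for undifferentiated spermatogonia, 3315 and 3779 in myoid-like, 4107 and 5041 in pericyte-like, 3343 and 4494 in stromal-like, 4614 and 6170 in endothelial-like, 3932 and 4503 in macrophage-like and 4954 and 6109 in T/NK-like cells. Median log2 ratios of the genes measured, UAT over CST, were -0.13, -0.17, -0.37, -0.38, -0.35, -0.21 and -0.31 in this order, against -0.0049, -0.07, -0.21, -0.12, -0.03, 0.05 and -0.06 for all features. Under TMM scaling the CST levels moved by -0.05, -0.15, -0.32, -0.19, -0.11, -0.07 and -0.14 on the log2 scale in the same order of classes, which lifts the ratios. The medians of the set became -0.08, -0.03, -0.10, -0.24, -0.24, -0.14 and -0.20, and stayed below 0 under every way of processing run.

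In undifferentiated spermatogonia 1 of 41 genes was at least 1.5-fold higher in UAT (3.4% of all features were) and 3 were lower (8.35% of all features). The higher gene was PSMD10, at 101 CPM in UAT against 60.0 in CST (ratio 1.68, interval 1.43 to 1.99). The lower genes were PSMG1, at 121 and 288 CPM (0.42, 0.38 to 0.47), PSMB3, at 37.8 and 69.8 CPM (0.54, 0.44 to 0.66), and PSMC4, at 80.8 and 127 CPM (0.63, 0.55 to 0.73). Intervals lay above 1 for 7 of the 41 genes (23.7% of all features) and below 1 for 21 (27%). Besides PSMD10, those above included PSMA7 (1.25), PSMD1 (1.26), PSME1 (1.35) and PSMB4 (1.23), and those below PSMB2 and PSMA5 (both 0.67). PSMB8 stood at 6.63 and 3.12 CPM, on 27 and 12 UMIs (2.13, 1.04 to 4.61), under 20 CPM and so outside the count. Mitochondrial UMIs made up 8.77% in UAT and 5.80% in CST spermatogonia, and median depths were 6960 and 2684 UMIs. Their part in these differences was not tested.

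In peritubular myoid-like cells none of 40 genes was at least 1.5-fold higher (4.98% of all features were) and 4 were lower (11.7%). These were PSMF1, at 34.3 CPM in UAT against 68.8 in CST, PSME4, at 27.8 and 54.2, PSMG1, at 47.1 and 87.2, and PSMD2, at 89.1 and 139. PSMB8 stood at 18.4 and 7.86 CPM (ratio 2.35, 1.48 to 3.92) and PSMB9 at 12.9 and 7.07 CPM (1.82, 1.11 to 3.15), both under 20 CPM and so outside the count. Intervals lay above 1 for 2 of the 40 (20.1% of all features), PSMB4 (1.27) and PSMD10 (1.52), and below 1 for 16 (33.9%). The UAT cells lay in cluster 3 and nearly all CST cells in cluster 23, so the library and the kind of myoid-like cell cannot be told apart.

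Stromal-like cells had none of 40 genes higher (3.8% of all features) and 10 lower (13.7%): PSMB1, PSMB3, PSMB6, PSMC1, PSMC4, PSMD2, PSME3, PSME4, PSMF1 and PSMG1. PSMC4 stood at 67.0 CPM in UAT against 137 in CST (0.49, 0.45 to 0.53), PSMB3 at 36.3 and 72.9 CPM (0.50), PSMB1 at 174 and 313 CPM (0.55) and PSMD2 at 84.8 and 147 CPM (0.58). Intervals lay below 1 for 34 of the 40 (46.9% of all features) and above 1 for 4 (22%), among them PSMD9 (1.38), PSMB9 (1.47) and PSMB8 (1.29). PSMD5 (1.65) and PSMD10 (1.26), under 20 CPM and outside the count, also had intervals above 1. Nearly all UAT cells lay in cluster 1 and nearly all CST cells in cluster 2. The library and the kind of stromal-like cell therefore cannot be told apart. The unnamed cluster 0 and cluster 1, both nearest to stromal and filled mostly by UAT, held 4725 UAT and only 52 CST cells. Taken by themselves, a choice made after seeing the data, these clusters had 4 genes lower. PSMC4 then had a log2 ratio of 0.041 in place of -0.93, and PSMB9 turned to -0.22 from 0.36. With the unnamed cluster nearest to stromal counted in, PSMB9 stood at 0.04 and PSMB8 at 0.06 in place of 0.28. The PSME1_1 row, a second row beside PSME1, stood at 14.5 and 54.5 CPM here.

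Endothelial-like cells had none of 43 genes higher (4.25% of all features) and 5 lower (10.7%). PSMB9 stood at 399 CPM in UAT against 612 in CST (0.65, 0.61 to 0.70), PSMB1 at 194 and 337 (0.58), PSMG1 at 64.9 and 127 (0.51), PSMF1 at 39.4 and 75.7 (0.52) and PSMC4 at 62.7 and 111 (0.56). Intervals lay below 1 for 30 of the 43 (25.9% of all features) and above 1 for 1 (17.5%), PSMD1, with a ratio of 1.26 (1.01 to 1.59).

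In macrophage-like cells, with 65 cells in CST, 4 of 42 genes were higher (15.4% of all features) and 4 lower (12.8%). PSMB9 stood at 90.3 CPM in UAT against 200 in CST (0.45, 0.34 to 0.60), PSMB2 at 84.0 and 133 (0.63), PSMF1 at 26.9 and 53.3 (0.50) and PSMG1 at 44.9 and 107 (0.42). PSMD1 stood at 87.7 and 46.7 CPM (1.88, 1.11 to 3.47) and PSMB4 at 103 and 60.0 (1.73, 1.08 to 2.94), and the intervals of the other higher genes, PSMC3 and PSMG3, held 1. Intervals lay above 1 for 2 of the 42 (11.4% of all features) and below 1 for 7 (13.1%).

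T/NK-like cells had 2 of 41 genes higher (13% of all features) and 10 lower (24%). PSMC4 stood at 58.4 CPM in UAT against 131 in CST (0.45, 0.30 to 0.67), PSMB2 at 66.3 and 145 (0.46), PSMB3 at 63.4 and 117 (0.54) and PSMB1 at 227 and 394 (0.58). The higher genes PSMD9 and PSMG4 had intervals that held 1. Intervals lay above 1 for 0 of the 41 (9.17% of all features) and below 1 for 13 (20.8%). In pericyte-like cells, with 78 cells in CST, 3 of 42 genes were higher (13.6%) and 7 lower (28.7%), led by PSMG1, PSMB1 at 233 and 415 CPM (0.56), PSMB6 at 167 and 276 (0.60) and PSMA3 at 118 and 182 (0.645). Intervals lay above 1 for 0 of the 42 (7.18% of all features) and below 1 for 8 (20.2%).

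**Figure D4:**
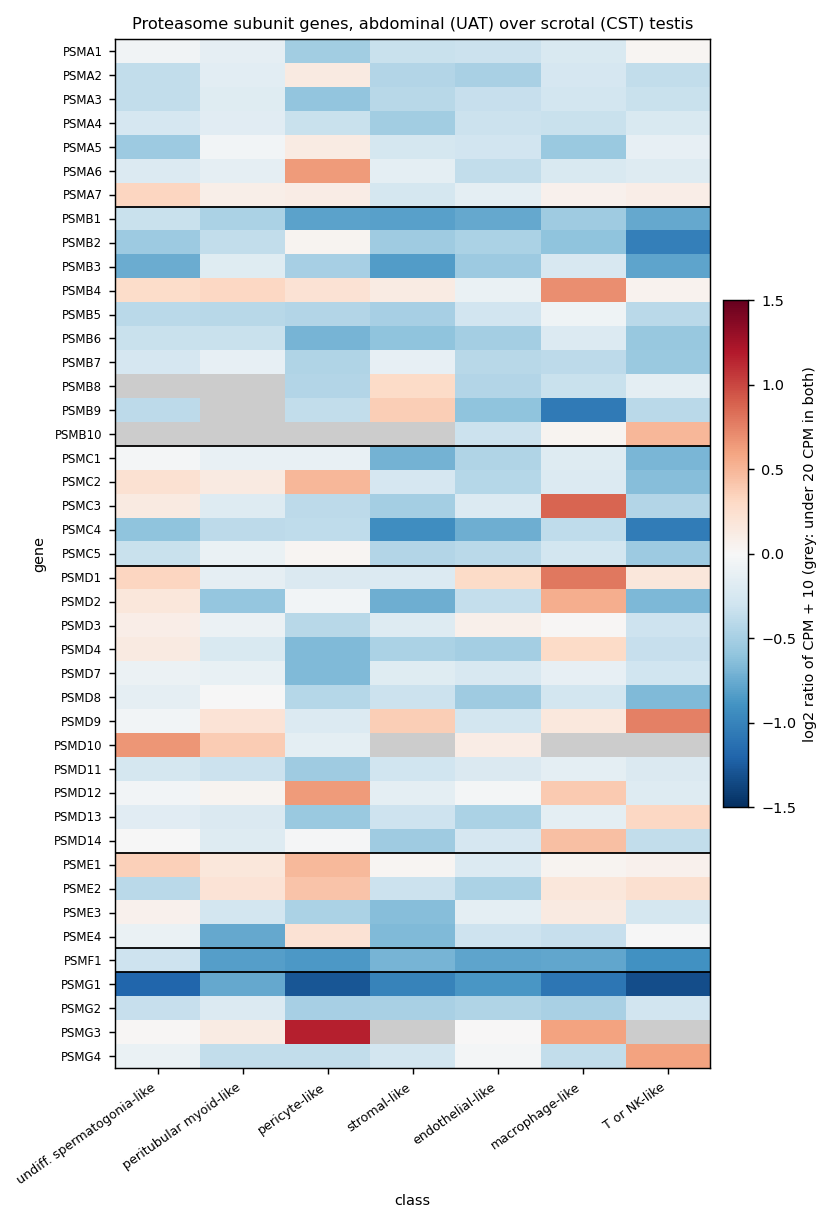
Log2 ratio of CPM + 10, UAT over CST, of the measured genes in the 7 classes compared (blue lower and red higher in UAT, grey under 20 CPM in both libraries); black lines part the subunit groups. The PSMG1 and PSMF1 rows are blue in all 7 classes, the PSMB1 and PSMC4 rows likewise, and the stromal-like column has no strong red cell.

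PSMG1, PSMF1 and PSMB1 were the genes whose intervals lay below 1 in all 7 classes. The PSMG1 ratio was 0.42 in spermatogonia, 0.54 in myoid-like, 0.37 in pericyte-like, 0.45 in stromal-like, 0.51 in endothelial-like, 0.42 in macrophage-like and 0.35 in T/NK-like cells. Late spermatocytes and round spermatids of CST hold much PSMG1. The free RNA of CST, taken to have the make-up of the whole library, was estimated to hold it too and was not measured directly. After subtraction of free RNA the ratios were 0.43, 0.62, 0.43, 0.53, 0.57, 0.49 and 0.46. PSMB1 was lower in all 7 classes too, at 0.55 to 0.79, with all intervals below 1.

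PSMF1 was 0.46 to 0.55 of its CST level in the 6 somatic classes and 0.79 in spermatogonia (0.69 to 0.91). Elongating spermatids hold most PSMF1, and subtraction of free RNA brought the somatic ratios to 0.61 in myoid-like, 0.72 in pericyte-like, 0.66 in endothelial-like, 0.73 in macrophage-like and 0.77 in stromal-like cells. In T/NK-like cells, the class with the most free RNA, the ratio turned to 1.18 from 0.46. PSMC4 had ratios of 0.45 to 0.74, with intervals that held 1 in pericyte-like and macrophage-like cells, and 0.50 to 0.86 after subtraction.

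**Figure D5:**
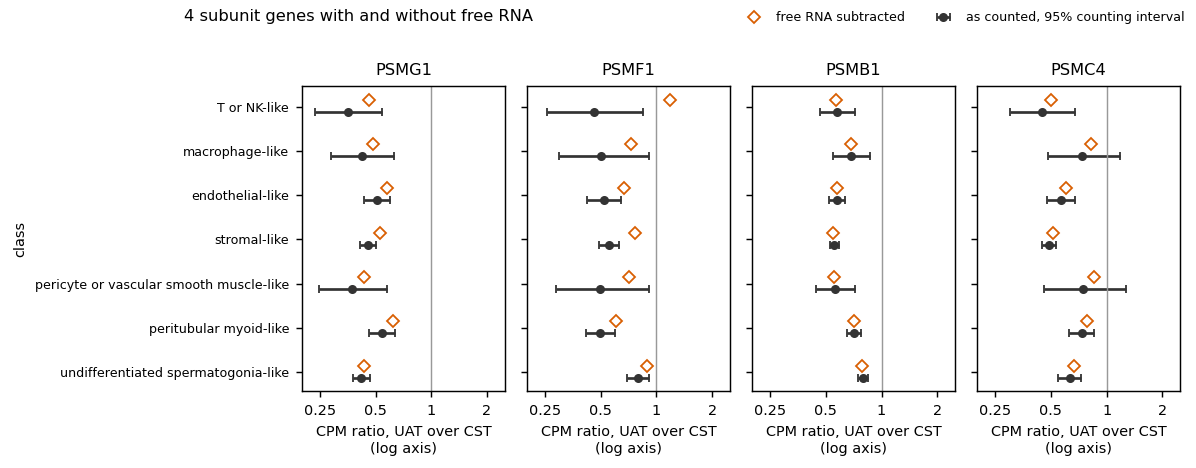
CPM ratio of UAT over CST (log axis) of PSMG1, PSMF1, PSMB1 and PSMC4 in the 7 classes, as counted (black, with 95% counting intervals) and after subtraction of free RNA (orange diamonds, with no interval). Subtraction moves PSMF1 most, across 1 in T/NK-like cells, and leaves PSMG1 between 0.43 and 0.62.

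By group of subunits, the ATPase genes had the lowest median in T/NK-like cells after the single inhibitor, with a log2 ratio of -0.64, and stood at -0.51 in stromal-like and -0.03 in spermatogonia. The beta ring had medians of -0.33 to -0.50 in all classes but macrophage-like cells, where it stood at -0.29. The PSMD genes were near level in spermatogonia at -0.02 and above in macrophage-like cells at 0.15. The activators ranged from -0.48 in stromal-like to 0.32 in pericyte-like cells.

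Partners outside the set had medians near 0. Of the ubiquitin list, 27 genes were measured in 6 of the classes and 26 in T/NK-like cells, and medians lay between -0.11 and 0.17. Counted as at least 1.5-fold higher and lower were 1 and 0 genes in spermatogonia, 1 and 1 in myoid-like, 4 and 3 in pericyte-like, 0 and 4 in stromal-like, 0 and 2 in endothelial-like, 3 and 1 in macrophage-like and 2 and 3 in T/NK-like cells. The shares of all features, 3.4% to 15.4% higher and 8.35% to 28.7% lower, are those given above for each class. The gene higher in spermatogonia was NFE2L1, the factor that induces proteasome genes when proteasomes are short, at 84.0 CPM in UAT against 47.3 in CST (1.78, 1.48 to 2.14). Its ratio was 1.11 in myoid-like, 1.67 in pericyte-like, 1.04 in stromal-like and 1.38 in endothelial-like cells. POMP stood at 101 and 228 CPM in T/NK-like cells (0.44) and ADRM1 at 65.6 and 159 CPM (0.41). With free RNA subtracted these ratios were 0.45 and 0.44. SQSTM1, an autophagy receptor for ubiquitinated proteins, stood at 501 and 230 CPM in myoid-like cells (2.18, 2.00 to 2.38).

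Of the class I list, 0 of 6 measured genes passed 1.5-fold in spermatogonia (3.4% of all features were higher and 8.35% lower). Higher and lower were 1 and 0 of 6 in myoid-like (4.98% and 11.7% of all features) and 1 and 2 of 9 in pericyte-like cells (13.6% and 28.7%). They were 1 and 1 of 8 in stromal-like (3.8% and 13.7%) and 0 and 1 of 11 in endothelial-like cells (4.25% and 10.7%). In macrophage-like cells they were 4 and 0 of 8 (15.4% and 12.8% of all features) and in T/NK-like cells 3 and 0 of 11 (13% and 24%). IRF1 stood at 132 and 53.9 CPM in stromal-like and 35.7 and 13.4 CPM in myoid-like cells. In macrophage-like cells PDIA3 stood at 486 and 233 CPM and CALR at 718 and 360 CPM. Of the germline partner list, 6 genes were measured in spermatogonia, with 1 lower in UAT (8.35% of all features) and a median of -0.18. In the somatic classes 2 to 5 were measured, with medians of -1.06 to -2.18, in the classes where CST also held spermatid RNA at the levels given above.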

How the data were processed

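The authors deposited whole-number UMI counts per feature and barcode for each library, not normalised. The file headers name Cell Ranger 5.0.0. Version 3.0.1 and the mouse build mm10 stand in the submitters' processing notes. The features carry macaque symbols, so no coordinates are given. Sequences of the genes were not used here.

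Barcodes with at least 500 genes were kept. Simulated doublets (2 per cell, 30 components) marked 0.8% of cells per 1000 barcodes, which removed 1221 UAT and 1800 CST cells. Joint Leiden clustering (leidenalg 0.10.2, resolution 1) used 2000 variable genes, 15 neighbours and 40 components, leaving out proteasome and mitochondrial features. Markers gave clusters their X-like names. No name was given where markers of another class led, where scores of separate lineages came within 0.25, or to shallow clusters with no marker among their leading genes. The rules for naming were set with the clusters in view, and 4 clusters (2380 UAT and 2155 CST cells) stayed unnamed. The erythroid list was left out of naming, a choice made with the clusters in view: 30 of 35 clusters had HBB UMIs, and 2702 of 2990 lay in 1 unnamed cluster.

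Class sums of counts were divided by the class total (CPM). A feature was measured in a comparison at 20 CPM in either group. Log2 ratios have a pseudocount of 10 CPM, which also decided the 1.5-fold calls, and ratios without it carry exact conditional binomial intervals. Shares carry Clopper-Pearson intervals. Free RNA was estimated from marker genes of other classes and subtracted as an alternative. The markers were the 5 late spermatid genes in CST and INSL3 alone in UAT, so the estimates of the libraries rest on different genes. Free RNA was taken to have the make-up of the whole library. None was subtracted from late spermatocytes and spermatids of CST, Leydig-like cells of UAT or unnamed clusters. Interval and scaling steps were run on simulated Poisson counts. These hold counting error only, as the intervals assume, so they cannot show how the intervals fare with variation between cells or libraries. Genes given with values were the exchanged subunits and their partners, activators and inhibitor, per comparison up to 5 genes in each direction by the interval bound nearest 1 (at least 30 UMIs), and up to 4 per subunit group by germ stage span. Other named genes, the cluster values, and the stages of the remaining genes were added after values were seen. The members and lists were chosen with earlier results of these data known. Alternatives are given in the closing section. Values of some genes of the lists are not reported here.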

Additional observations from a re-analysis of the deposited data

How the results depend on the processing

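Counts of genes at least 1.5-fold lower in UAT depended on the processing. In stromal-like cells the 10 genes became 5 with a minimum of 1000 genes, 5 without doublet removal and 5 at resolution 2. TMM scaling gave 4, and counting in the unnamed cluster nearest to stromal gave 5. Clusters 0 and 1 taken by themselves, filled mostly by UAT with 52 CST cells, gave 4. The last 2 settings were chosen after seeing the data. A pseudocount of 1 gave 12 and the mean of per-cell CPM 13, a range of 4 to 13. In T/NK-like cells 10 became 6 without doublet removal and 6 with TMM scaling. In undifferentiated spermatogonia 3 became 1 at resolution 2, 1 with each library clustered alone and 6 with the mean of per-cell CPM. In pericyte-like cells 7 became 17 with per-cell means and 2 with TMM scaling, and a minimum of 200 genes gave no value because CST then had under 50 such cells. In endothelial-like cells 5 became 9 with per-cell means. The PSMA8 share in late spermatocytes, 64.4%, was 80.1% with a minimum of 1000 genes, 78.5% with each library clustered alone, 53.5% with per-cell means and 95.1% with both rows summed (added after seeing the data). Of ratios past 1.5-fold, 2 were reversed. The log2 ratio of PSMF1 in T/NK-like cells was 0.17 with free RNA subtracted. That of PSMC4 in stromal-like cells was 0.041 in clusters 0 and 1 taken by themselves. There PSMB9, 0.36 and so not past 1.5-fold, turned to -0.22. Apart from the stated construction of each setting, the cause was not tested. PSMG1 stayed lower in UAT in all 7 classes under every setting run. No paired analysis was possible because the labels give no replicate numbers and each position has 1 library, so no replicate could be left out either. CST classes of 65 to 136 cells gave the widest intervals.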
